A study of Homo sapiens with 4 samples.

Results

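Irradiated U-2 OS cells that held little CDKN1A mRNA were compared with those that held much of it. CDKN1A encodes p21, an inhibitor of cyclin-dependent kinases. In each library of cells exposed to ionizing radiation (IR), cells were chosen by their CDKN1A counts per 10000 gene counts, spike-ins left out. The bottom quartile is called CDKN1A-low and the top quartile CDKN1A-high. The comparison held 247 of 1220 cells in the series: 62 CDKN1A-low and 61 CDKN1A-high cells of 247 in IR experiment 1, and 62 of each among 248 in IR experiment 2. Because CDKN1A chose the cells, its own values are a description, and CDKN1A was left out of every test.

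U-2 OS is an osteosarcoma cell line of human origin that carries wild-type p53. The IR cells had received 4 Gy, and the untreated (UT) cells, 358 and 367 of them, came from the same line without IR. The series design and the study's methods for these cells place sorting 48 h after irradiation, whereas the treatment protocol of the samples gives 24 h. Each experiment gave 1 library per condition, from single cells sorted into wells. All cells belong to 1 line, the labels name no allele or transgene for them, and levels are relative to a cell's total counts, so a lower level need not mean fewer molecules per cell.

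After DNA breaks, p53 is stabilised and switches on a set of target genes. Among them p21 blocks the kinases that drive entry into S phase and mitosis, MDM2 is the ligase that marks p53 for degradation and so closes a feedback loop, and others slow growth, repair DNA or favour cell death. When cyclin-dependent kinases are inhibited, RB-family proteins and the DREAM complex hold E2F and cell cycle genes repressed. Promoters of G2/M genes often carry a short element called CHR, and DREAM and MYB-MuvB complexes bind it. Within an irradiated population, p21 is known to differ widely between cells.

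The sequences below show the p53-type element near the gene that ranked the cells and near a target that moved with it. They were read from GRCh38, and capitals mark a 20-base window within 2500 bases of the RefSeq start with the fewest mismatches to the p53 consensus, which reads the same on both strands. Both windows had 2 mismatches, and a window with 2 or fewer lay within that distance of 12.6% of 27305 gene starts. For CDKN1A 2 windows tied, and the one farther upstream is printed. It starts at position -2265 relative to the RefSeq start, and 1 GENCODE transcript begins inside it, with an exon over its end. The MDM2 window lies 751 bases after the start and is intronic in all 6 spanning transcripts.
CDKN1A, chr6:36676429-36676488, plus strand: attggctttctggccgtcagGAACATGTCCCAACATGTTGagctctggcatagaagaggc
MDM2, chr12:68808903-68808962, plus strand: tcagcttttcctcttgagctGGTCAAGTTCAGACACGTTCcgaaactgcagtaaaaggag

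The promoters below are those of G2/M genes described in the results, from RefSeq (GRCh38.p14), each ending at or before the start site. Capitals mark the CHR letters TTTGAA or TTCGAA, searched on both strands, so a reversed match reads TTCAAA or TTCGAA. Of 57 G2/M genes 49 had a promoter in the table, and 34 of these (69.4%) held a CHR match, against 16.6% of all 27305 promoters. The letters CCAAT, the core of NF-Y sites, also stood in 34 of the 49 (69.4%), against 35.7% of all. For CCNB1 no CHR match lay upstream of the start. A match describes letters in a window and is not a measured site.
MKI67, chr10:128126424-128126492, minus strand: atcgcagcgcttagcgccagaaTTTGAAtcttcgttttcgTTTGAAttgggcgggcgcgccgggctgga
CDC20, chr1:43358876-43358961, plus strand: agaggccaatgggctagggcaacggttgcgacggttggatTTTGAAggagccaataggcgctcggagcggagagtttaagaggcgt
CCNB2, chr15:59105077-59105145, plus strand: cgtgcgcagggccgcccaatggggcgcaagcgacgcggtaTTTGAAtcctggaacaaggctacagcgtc
ANLN, chr7:36389802-36389861, plus strand: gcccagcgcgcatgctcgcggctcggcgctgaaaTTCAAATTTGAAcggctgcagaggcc

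CDKN1A lies at chr6:36676460-36687337 on the plus strand. Its level in CDKN1A-low cells had a median of 2.90 (0 to 4.63) per 10000 in experiment 1 and 2.26 (0 to 4.31) in experiment 2. In CDKN1A-high cells the median was 16.5 (13.25 to 53.96) and 16.7 (12.68 to 46.18). The next quartile began at 4.75 and 4.39, and the one below the top ended at 13.19 and 12.26, so no gap in the values set the quartiles apart. Only 3 and 9 CDKN1A-low cells had no CDKN1A count at all. By its median cell, the bottom quartile of IR cells was therefore low within an irradiated population, since the median UT cell held 1.54 and 1.43 per 10000. In summed counts the order was the other way, with 295 and 233 CPM of CDKN1A in CDKN1A-low IR cells, against 324 and 277 CPM in all UT cells. The top quartile of UT cells began at 3.91 and 3.65, and 76 and 73 UT cells had no count.

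The median CDKN1A-low cell held 19818 and 18974 gene counts, against 18677 and 21924 in CDKN1A-high cells, so depth differed in opposite directions in the 2 experiments. Mitochondrial transcripts took a median 2.92% and 3.28% of counts in CDKN1A-low cells, against 2.43% and 2.80% in CDKN1A-high cells. Gene counts per spike-in count had medians of 405 and 78.8 in CDKN1A-low cells, against 468 and 94.4 in CDKN1A-high cells. The part of these differences in the results was not tested. Well barcodes, which repeat between plates, were shared by 173 cells of the IR libraries. Of 14 markers of other cell types, GFAP, PTPRC, CD3E and CD14 summed to 41, 22, 22 and 27 counts in IR experiment 2 and to 0, 5, 0 and 2 in IR experiment 1, while HBB, HBA1 and KRT19 had none in any library. Over the whole marker list the summed level was 17.1 and 47.3 CPM in CDKN1A-low cells, against 18.7 and 39.8 CPM in CDKN1A-high cells.

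**Figure D1:**
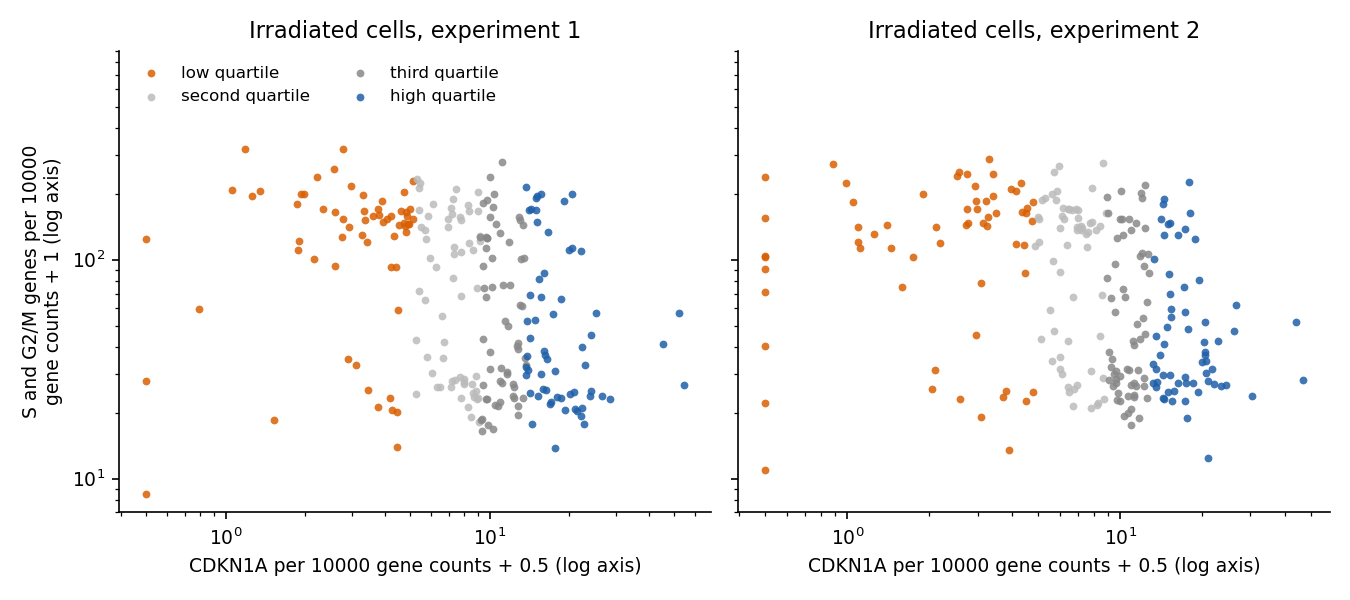
Each point is 1 irradiated cell, experiment 1 on the left and experiment 2 on the right, with CDKN1A per 10000 gene counts plus 0.5 on a log x axis and the summed S phase and G2/M genes per 10000 plus 1 on a log y axis, coloured by CDKN1A quartile. Medians of the summed cycle genes were 147 and 142 per 10000 in CDKN1A-low cells, against 35.2 and 35.7 in CDKN1A-high cells, yet cells of both kinds stand at the top and at the bottom of the plot.

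Counts of each quartile were summed per library, and all folds and tests below compare these sums, with the library as a block. CPM values are those sums, given as experiment 1 and then experiment 2, and a log2 fold change is CDKN1A-low minus CDKN1A-high, with its standard error. Of 12150 genes tested with edgeR's quasi-likelihood test, 703 (5.79%) were higher and 566 (4.66%) lower in CDKN1A-low cells at a Benjamini-Hochberg adjusted p under 0.05, or 10.4% in either direction. The 2 experiments gave the same direction for 1267 of these 1269 genes (99.8%). The groups did not overlap for 41.7% of the genes tested, and the median over all genes was -0.01 on the log2 scale. Without the library block 114 genes were higher and 41 lower, and with DESeq2 247 and 134.

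Cell cycle genes were the group with the most calls. Of 57 G2/M genes 54 were higher in CDKN1A-low cells and none lower, and the list's median was 1.71 on the log2 scale (1.59 and 1.83 in the 2 experiments). Of 51 S phase genes 38 were higher and none lower, with a median of 0.97. In single cells, 13 of 62 and 14 of 62 CDKN1A-low cells lay at or below their library's median sum of S phase and G2/M genes, against 45 of 61 and 47 of 62 CDKN1A-high cells. Cells with many cycle transcripts were thus the majority but not all of the CDKN1A-low quartile.

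MKI67 encodes Ki-67, the antigen that marks proliferating cells, at chr10:128096659-128126423 on the minus strand. It stood at 301 and 248 CPM in CDKN1A-low sums, against 114 and 83.8 CPM in CDKN1A-high sums. The middle quartiles lay between them, at 211 and 222 CPM and at 130 and 103 CPM. The log2 fold change was 1.5 ± 0.13 (edgeR quasi-likelihood, adjusted p = 3.63e-10). A UMI of MKI67 was seen in 46 of 62 and 43 of 62 CDKN1A-low cells, against 25 of 61 and 30 of 62 CDKN1A-high cells. After each cell was thinned to 8000 UMIs, with 9 and 8 CDKN1A-low and 4 and 2 CDKN1A-high cells too shallow, the shares were 71.7% (57.7 to 83.2, exact 95% Clopper-Pearson interval) and 68.5% (54.4 to 80.5) in CDKN1A-low cells, against 29.8% (18.4 to 43.4) and 26.7% (16.1 to 39.7) in CDKN1A-high cells. These intervals cover counting error only, and the line holds no cell type that should lack the gene to set a background.

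CCNB1, at chr5:69167135-69178245 on the plus strand, encodes cyclin B1, which activates CDK1 at mitosis. Its sums were 364 and 360 CPM in CDKN1A-low cells, against 75.6 and 88.6 CPM in CDKN1A-high cells, a log2 fold change of 2.17 ± 0.13 (edgeR quasi-likelihood, adjusted p = 4.41e-14). The thinned share of cells with a CCNB1 UMI was 64.2% (49.8 to 76.9) and 74.1% (60.3 to 85) in CDKN1A-low cells, against 22.8% (12.7 to 35.8) and 35.0% (23.1 to 48.4) in CDKN1A-high cells. The groups did not overlap in either measure. CDC20, the activator of the anaphase-promoting complex, was at 164 and 376 CPM in CDKN1A-low sums, against 41.3 and 74.4 CPM in CDKN1A-high sums. Its level varied more between experiments than that of CCNB1, while the fold was alike, at 2.23 ± 0.15. CCNB2, the second B-type cyclin, had 223 and 315 CPM in CDKN1A-low sums, against 68.6 and 72.3 CPM in CDKN1A-high sums. ANLN, an actin-binding protein of the cytokinetic ring, had 336 and 349 CPM in CDKN1A-low sums, against 87.3 and 98.0 CPM in CDKN1A-high sums. CHR letters stand upstream of MKI67, CDC20, CCNB2 and ANLN and not of CCNB1, and all of them moved in 1 direction.

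Among genes of at least 20 CPM, the 10 with the largest log2 fold change toward CDKN1A-low cells were mostly genes of spindle, kinetochore or mitotic exit. SAPCD2, a regulator of spindle orientation, led with 42.8 and 38.6 CPM in CDKN1A-low sums, against 4.67 and 5.41 CPM in CDKN1A-high sums (3.01 ± 0.36). HJURP, the chaperone that loads the centromeric histone, followed at 2.77 ± 0.65, the least certain of the 10 (edgeR adjusted p = 0.0491). CENPA, that histone, was higher by 2.19 ± 0.22 on the log2 scale. CDCA8, the Borealin subunit of the chromosomal passenger complex, had 95 and 120 CPM in CDKN1A-low sums, against 17.9 and 18.9 CPM in CDKN1A-high sums. The kinases AURKA (2.44 ± 0.19) and PLK1 (2.36 ± 0.38), the kinetochore protein NUF2 (2.23 ± 0.26), separase ESPL1 (2.19 ± 0.26), DEPDC1 (2.51 ± 0.25) and CDC20 completed the set. SAPCD2 had counts in 28 and 20 CDKN1A-low cells and in 5 and 8 CDKN1A-high cells, so under 50% of CDKN1A-low cells carried it.

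**Figure D2:**
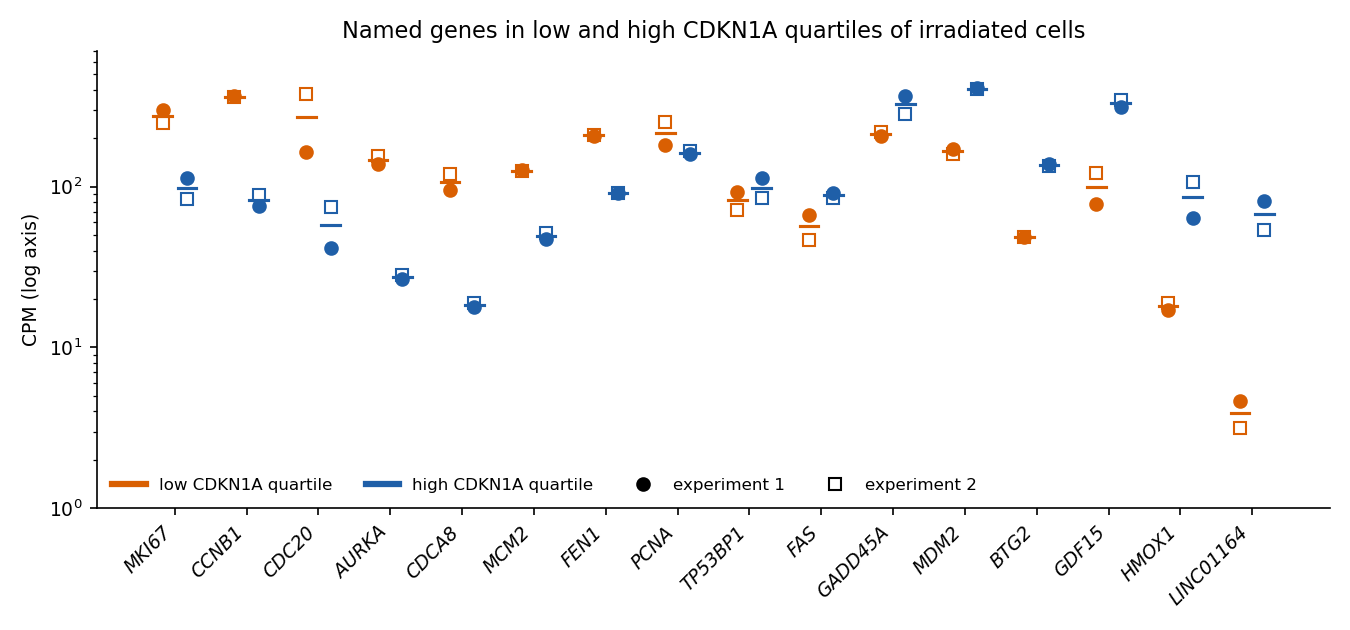
CPM of summed counts on a log axis for 16 genes described in the text, CDKN1A-low sums in orange at the left and CDKN1A-high sums in blue at the right of each pair, with filled circles for experiment 1, open squares for experiment 2 and a line at their mean. From MKI67 to PCNA the CDKN1A-low values lie higher, for TP53BP1 the ranges overlap, and from FAS to LINC01164 the CDKN1A-low values lie lower.

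S phase genes differed by smaller folds. FEN1, the flap endonuclease that trims Okazaki fragments (chr11:61792911-61797238, plus strand), had 208 and 208 CPM in CDKN1A-low sums, against 91.2 and 91.3 CPM in CDKN1A-high sums (1.22 ± 0.13, edgeR adjusted p = 4.06e-08). MCM2, a subunit of the replicative helicase, had 126 and 125 CPM in CDKN1A-low, against 47.5 and 51.4 CPM in CDKN1A-high sums (1.36 ± 0.17). RRM2, the small subunit of ribonucleotide reductase, had 382 and 253 CPM in CDKN1A-low sums, against 178 and 127 CPM in CDKN1A-high sums. CLSPN, the adaptor claspin that helps ATR activate CHK1, had 150 and 82.0 CPM in CDKN1A-low, against 51.4 and 35.2 CPM in CDKN1A-high sums. For both, experiment 1 was higher than experiment 2 in each quartile, and the groups did not overlap. PCNA, the sliding clamp, changed less: 181 and 252 CPM in CDKN1A-low sums, against 160 and 166 CPM in CDKN1A-high sums (0.43 ± 0.13, adjusted p = 0.0233).

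Of 33 tested cyclins, CDKs, inhibitors and their transcription factors, 13 were higher and 5 lower in CDKN1A-low cells. FOXM1, which drives G2/M genes, had 179 and 162 CPM in CDKN1A-low sums, against 71.7 and 62.9 CPM in CDKN1A-high sums. MYBL2 (0.96 ± 0.14), CDC25B (1.25 ± 0.19) and the CDK4/6 inhibitor CDKN2C (1.57) were also higher. D-type cyclins went the other way: CCND2 was at 365 and 357 CPM in CDKN1A-low sums, against 623 and 585 CPM in CDKN1A-high sums (-0.72 ± 0.09), and CCND1 was lower by -0.32 on the log2 scale. The others that fell were CCNG2 (-0.98), E2F7 (-0.69) and TFDP2 (-0.67), of which E2F7 is itself a p53-induced repressor. The G1 kinases CDK4 (352 and 341 CPM in CDKN1A-low, against 347 and 269 CPM in CDKN1A-high sums) and CDK6 (214 and 216 CPM in CDKN1A-low, against 214 and 197 CPM in CDKN1A-high sums) did not pass the test. CDKN2A, which encodes p16, was too low to test.

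p53 targets were lower in CDKN1A-low cells as a group. CDKN1A itself is not in the list. Of 52 listed targets 47 were tested, and 30 were lower and none higher, and the list's median was -0.69 (-0.65 and -0.72 in the 2 experiments), and all 47 estimates were negative. Across all cells of a library, the summed p53 targets had a Spearman rho with CDKN1A of 0.615 (247 cells) and 0.653 (248 cells), a description over cells that share their library and depth.

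MDM2, the feedback inhibitor (chr12:68808177-68845544, plus strand), had 172 and 160 CPM in CDKN1A-low sums, against 411 and 404 CPM in CDKN1A-high sums (-1.27 ± 0.22, edgeR adjusted p = 0.0105). The middle quartiles held 180 and 242 CPM and 212 and 377 CPM, so the step between them and the top quartile was sharper in experiment 1. BTG2, an antiproliferative factor (chr1:203305491-203309602, plus strand), had 48.3 and 48.9 CPM in CDKN1A-low sums, against 138 and 135 CPM in CDKN1A-high sums (-1.47 ± 0.16). Here the middle quartiles filled the gap evenly, at 71.1 and 70.6 CPM and at 98.3 and 97.4 CPM. BTG2 counts were present in 29 and 32 CDKN1A-low cells and in 52 and 53 CDKN1A-high cells.

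GDF15, a secreted stress cytokine (chr19:18374731-18389176, plus strand), had 77.9 and 121 CPM in CDKN1A-low sums, against 313 and 345 CPM in CDKN1A-high sums (-1.71 ± 0.23, edgeR adjusted p = 0.00193). It was seen in 25 of 62 and 21 of 62 CDKN1A-low cells, against 45 of 61 and 47 of 62 CDKN1A-high cells. In experiment 2, 1 CDKN1A-low cell held 42.6% of that group's GDF15 counts. After thinning, the shares of cells were 32.1% (19.9 to 46.3) and 24.1% (13.5 to 37.6) in CDKN1A-low cells, against 61.4% (47.6 to 74.0) and 60.0% (46.5 to 72.4) in CDKN1A-high cells.

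Other targets that fell in CDKN1A-low cells included TP53INP1, an autophagy and cell death regulator (-1.64 ± 0.21), the sestrin SESN2 (-1.42 ± 0.19), the metabolic phosphatase TIGAR (193 and 198 CPM in CDKN1A-low, against 354 and 353 CPM in CDKN1A-high sums), and BBC3, which encodes the death effector PUMA (-1.09). GADD45A, a growth arrest protein, had 207 and 220 CPM in CDKN1A-low sums, against 366 and 283 CPM in CDKN1A-high sums (-0.57 ± 0.12, edgeR adjusted p = 0.00126). Its lower 3 quartiles were nearly level, at 195 to 222 CPM, and only the top quartile stood higher. The death receptor FAS had 67.0 and 46.5 CPM in CDKN1A-low sums, against 91.9 and 84.5 CPM in CDKN1A-high sums, and just missed the threshold (-0.61 ± 0.20, adjusted p = 0.0527). BAX, the pore-forming effector, had 32.7 and 59.9 CPM in CDKN1A-low, against 34.3 and 73.0 CPM in CDKN1A-high sums, so its 2 experiments differed more than its quartiles, and it did not pass (adjusted p = 0.66).

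Among the 10 largest falls in CDKN1A-low cells, GDF15 was the only listed p53 target. LINC01164, a long non-coding RNA, had 4.67 and 3.15 CPM in CDKN1A-low sums, against 81.0 and 54.1 CPM in CDKN1A-high sums (-4.05 ± 0.46). Its counts came from 3 and 4 CDKN1A-low cells and from 15 and 13 CDKN1A-high cells, so most cells of either kind had none. HMOX1, the haem-degrading enzyme induced by oxidative stress (chr22:35380361-35394214, plus strand), had 17.1 and 18.9 CPM in CDKN1A-low sums, against 63.9 and 108 CPM in CDKN1A-high sums (-2.21 ± 0.24, edgeR adjusted p = 3.73e-08). It was seen in 12 and 16 CDKN1A-low cells and in 30 and 37 CDKN1A-high cells. MXD4, a MAX partner that opposes MYC, had 30.4 and 31.5 CPM in CDKN1A-low, against 103 and 110 CPM in CDKN1A-high sums (-1.75 ± 0.20). CITED2, a CBP/p300 interactor (-1.73 ± 0.23), the catenin ARVCF (-1.75 ± 0.31), TMEM63B (-1.69 ± 0.31) and the non-coding RNAs UCA1 (-1.66 ± 0.28), UNC5B-AS1 (-2.11 ± 0.28) and AL353622.1 (-2.14 ± 0.31) made up the rest. UNC5B-AS1 is antisense to another gene, and its reads cannot be told from that gene's where counting ignores strand. In CDKN1A-high cells of experiment 2, 1 cell held 48.3% of UCA1 counts.

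**Figure D3:**
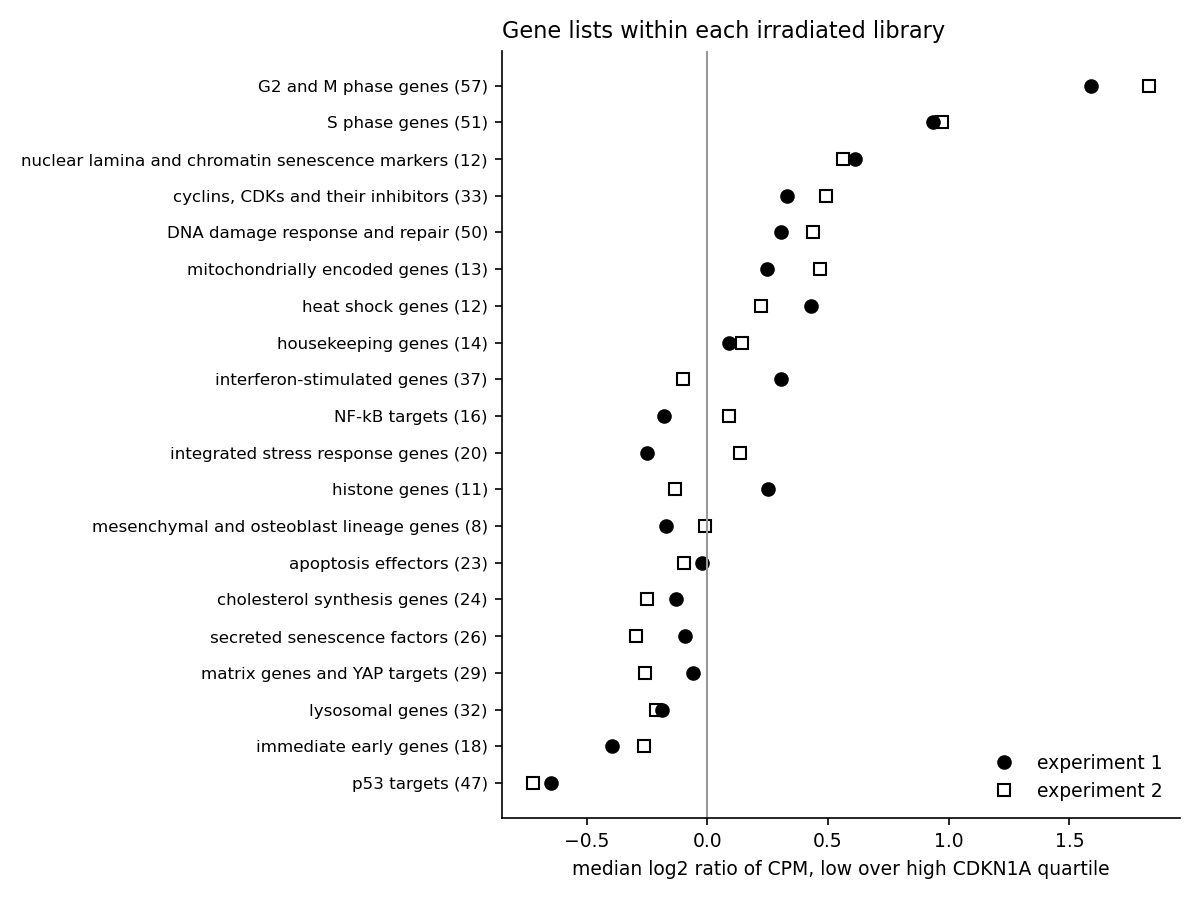
Median log2 ratio of CPM, CDKN1A-low over CDKN1A-high, over the tested members of each gene list (their number in brackets), with filled circles for experiment 1 and open squares for experiment 2. Markers of other cell types, with too few tested members, are not drawn. G2/M genes stand farthest to the right at 1.59 and 1.83 and p53 targets farthest to the left at -0.65 and -0.72. The experiments fall on opposite sides of 0 for interferon-stimulated genes, NF-kB targets, integrated stress response genes and histone genes.

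DNA damage response and repair genes were partly higher in CDKN1A-low cells, with 15 of 50 higher, none lower and a median of 0.44. H2AFX, the histone that is phosphorylated at breaks, had 84.1 and 202 CPM in CDKN1A-low sums, against 28.0 and 46.7 CPM in CDKN1A-high sums (1.95 ± 0.20). FANCI (1.29 ± 0.22), TIMELESS (1.14 ± 0.22), BRCA1 (1.07), BRCA2 (1.01) and RIF1 (0.74 ± 0.15) were also higher. TP53BP1, which binds chromatin at breaks, had 92.7 and 71.8 CPM in CDKN1A-low sums, against 113 and 84.5 CPM in CDKN1A-high sums, lower in both experiments but not past the threshold (-0.24 ± 0.16, edgeR adjusted p = 0.39). ATM (92.7 and 90.7 CPM in CDKN1A-low, against 91.2 and 92.0 CPM in CDKN1A-high sums) and the end-joining kinase PRKDC (338 and 301 CPM in CDKN1A-low, against 288 and 285 CPM in CDKN1A-high sums) did not pass.

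Apoptosis effectors and secreted senescence factors had shares of calls near the 10.4% of all genes called in either direction. NF-kB targets had none, and immediate early genes had a larger share. Of 23 apoptosis effectors 1 was higher, cytochrome c CYCS (630 and 564 CPM in CDKN1A-low, against 386 and 333 CPM in CDKN1A-high sums), and 1 lower, the survival protein BCL2L1 (279 and 234 CPM in CDKN1A-low, against 439 and 359 CPM in CDKN1A-high sums). Of 26 secreted senescence factors 3 were lower: the EGFR ligand AREG (26.5 and 33.1 CPM in CDKN1A-low, against 78.7 and 82.5 CPM in CDKN1A-high sums), IGFBP7 (141 and 160 CPM in CDKN1A-low, against 271 and 199 CPM in CDKN1A-high sums) and FGF2 (-0.59 ± 0.19). In CDKN1A-high cells 1 cell held 32.7% and 37.9% of AREG counts. CXCL8 (15.6 and 25.2 CPM in CDKN1A-low, against 16.4 and 6.08 CPM in CDKN1A-high sums) did not pass, CSF1 had an adjusted p of 0.0636, and none of 16 NF-kB targets was called. Of 18 immediate early genes 5 were lower, among them the stress factor ATF3 (32.7 and 40.2 CPM in CDKN1A-low, against 70.9 and 145 CPM in CDKN1A-high sums, -1.52 ± 0.21), the phosphatase DUSP1 (-0.91 ± 0.19), KLF6 (-0.50 ± 0.13) and FOSL2 (-0.45 ± 0.13).

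Interferon-stimulated genes showed calls in both directions, 2 higher and 3 lower of 37 tested. The RNA sensor IFIH1 had 24.9 and 18.1 CPM in CDKN1A-low sums, against 5.45 and 11.5 CPM in CDKN1A-high sums (1.37 ± 0.40, edgeR adjusted p = 0.0203). It was present in 10 and 10 CDKN1A-low cells, against 6 and 13 CDKN1A-high cells, and 1 CDKN1A-low cell held 53.1% of its counts in experiment 1 and 1 held 26.1% in experiment 2. DDX60 was higher by 0.84. TAP1, the peptide transporter of antigen presentation, had 35.8 and 25.2 CPM in CDKN1A-low, against 81.0 and 60.2 CPM in CDKN1A-high sums (-1.18 ± 0.21). HLA-C (-0.45 ± 0.11) and HLA-E (-0.49 ± 0.16) were lower as well. The antiviral RNA binder IFIT1 had 138 and 59.9 CPM in CDKN1A-low, against 19.5 and 64.2 CPM in CDKN1A-high sums, so its experiments went in opposite directions, and neither it nor IFIT2 or IFIT3 passed. HLA genes, like the histone genes below, have near-identical relatives, and reads shared between genes were not counted, so their values are uncertain.

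Of 12 heat shock genes 5 were higher and none lower in CDKN1A-low cells, including the chaperones HSPA8 (1428 and 1176 CPM in CDKN1A-low, against 840 and 606 CPM in CDKN1A-high sums), HSP90AA1 (0.50 ± 0.09), DNAJA1 (0.53 ± 0.10) and HSPD1 (0.43 ± 0.11). Of 12 nuclear lamina and chromatin markers 7 were higher, among them the histone variant H2AFZ (1204 and 1210 CPM in CDKN1A-low, against 743 and 765 CPM in CDKN1A-high sums), DNMT1 (0.89 ± 0.13), HMGB1 (0.59 ± 0.09) and the H3K9 methyltransferase SUV39H1 (1.67 ± 0.28). Of 11 histone genes the replication-dependent HIST1H4C was higher (121 and 132 CPM in CDKN1A-low, against 78.7 and 85.9 CPM in CDKN1A-high sums) and the linker histone HIST1H1C lower (22.6 and 29.2 CPM in CDKN1A-low, against 53.8 and 55.4 CPM in CDKN1A-high sums). Of 13 mitochondrially encoded genes 4 were higher, such as MT-CYB (0.54 ± 0.13) and MT-ND2 (2510 and 2749 CPM in CDKN1A-low, against 1996 and 1987 CPM in CDKN1A-high sums).

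Further lists had shares of calls around the 10.4% of all genes called in either direction, and are given as a description. Of 32 lysosomal genes 2 were lower, PSAP (-0.40 ± 0.09) and HEXA (-0.56 ± 0.17), and of 24 cholesterol synthesis genes 3 were lower, STARD4 (-0.53 ± 0.15), MSMO1 (-0.41 ± 0.12) and SREBF2 (-0.42 ± 0.13). Of 29 matrix genes and YAP targets the adhesion protein THBS1 was higher (156 and 249 CPM in CDKN1A-low, against 95.1 and 116 CPM in CDKN1A-high sums), and the Hippo kinase LATS2 (53 and 56.8 CPM in CDKN1A-low, against 91.2 and 98.7 CPM in CDKN1A-high sums) and COL5A1 (-0.58 ± 0.14) were lower. Of 20 integrated stress response genes SLC7A5 was higher (0.55 ± 0.16) and NUPR1 (-0.71 ± 0.18) and CEBPB (-0.59 ± 0.16) lower. Of 14 housekeeping genes the transferrin receptor TFRC was higher (0.39 ± 0.11). Of 8 mesenchymal and osteoblast lineage genes RUNX2, the osteoblast master factor, was lower (-0.99 ± 0.27). Neither tested marker of other cell types passed: EPCAM had 11.7 and 18.9 CPM in CDKN1A-low sums, against 14 and 11.5 CPM in CDKN1A-high sums, and GFAP had 0 and 11 CPM in CDKN1A-low, against 0 and 6.76 CPM in CDKN1A-high sums.

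Each end of the irradiated population was also set against all untreated cells, with the experiment as a block. The low and high sums of an IR library entered this fit as separate samples, without a term for the library they share. The effect of this on the calls was not tested. Both comparisons share the UT libraries. Of 11651 genes, 492 (4.22%) were higher and 345 (2.96%) lower in CDKN1A-low IR cells than in UT cells, 7.18% in all. In CDKN1A-high IR cells 1439 (12.4%) were higher and 1395 (12%) lower than in UT cells. Without the block these counts fell to 19 and 4 for CDKN1A-low cells and to 502 and 460 for CDKN1A-high cells.

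p53 targets of CDKN1A-low irradiated cells stood above the untreated level, though their summed CDKN1A did not, at 295 and 233 CPM against 324 and 277 CPM in UT. Of 47 p53 targets 23 were higher than in UT cells and none lower (median 0.56 on the log2 scale), and CDKN1A-high cells had 43 higher, none lower and a median of 1.39. GDF15 had 8.0 and 15.3 CPM in UT, so CDKN1A-low cells stood above UT by 3.05 on the log2 scale (edgeR adjusted p = 1.82e-10) and CDKN1A-high cells by 4.78 (adjusted p = 9.77e-16). MDM2 had 79.1 and 105 CPM in UT, and exceeded it by 0.82 in CDKN1A-low and 2.09 in CDKN1A-high cells. FAS (1.43) and GADD45A (1.34) were also higher in CDKN1A-low IR than in UT cells. HMOX1 was not called in CDKN1A-low cells: at 20.3 and 16.2 CPM in UT, its difference from CDKN1A-low IR cells was -0.06 (adjusted p = 0.94), while CDKN1A-high cells were higher by 2.17.

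G2/M genes of CDKN1A-low irradiated cells had calls in each direction against UT, and some S phase genes were lower, beside 7.18% of all genes called. Of 57 G2/M genes 4 were higher and 5 lower than in UT, with a median of 0.11, against 54 lower and none higher in CDKN1A-high cells, with a median of -1.64. CCNB1 had 266 and 224 CPM in UT and was higher by 0.52 in CDKN1A-low IR cells (edgeR adjusted p = 0.0065), whereas MKI67, at 423 and 369 CPM in UT, was lower by -0.57 (adjusted p = 0.00168). Of 51 S phase genes 10 were lower and none higher in CDKN1A-low cells, with a median of -0.38, against 51 lower in CDKN1A-high cells, with a median of -1.33. Summed over each list, the ratio to the UT library of the same experiment went through the quartiles from low to high CDKN1A as 1.05, 0.631, 0.516 and 0.405 for G2/M genes in experiment 1 and as 1.05, 0.854, 0.502 and 0.350 in experiment 2. For p53 targets the ratios were 1.65, 1.84, 2.07 and 2.63 in experiment 1 and 1.5, 1.78, 2.28 and 2.52 in experiment 2.

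Some lists had genes above UT at both ends of the CDKN1A range. Of 35 interferon-stimulated genes 11 were higher than in UT and none lower in CDKN1A-low cells, with a median of 0.60, and 11 were higher in CDKN1A-high cells, with a median of 0.62. Of 25 secreted senescence factors 11 were higher and 1 lower in CDKN1A-low cells (median 0.61), and 14 were higher and 1 lower in CDKN1A-high cells (median 0.68). Lysosomal genes had 10 higher in CDKN1A-low and 23 in CDKN1A-high cells. Of 13 mitochondrially encoded genes 9 were lower in CDKN1A-low and 10 in CDKN1A-high cells than in UT, with medians of -0.58 and -1.0. HIST1H4C, at 337 and 304 CPM in UT, was lower by -1.38 in CDKN1A-low and by -2.01 in CDKN1A-high cells.

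**Figure D4:**
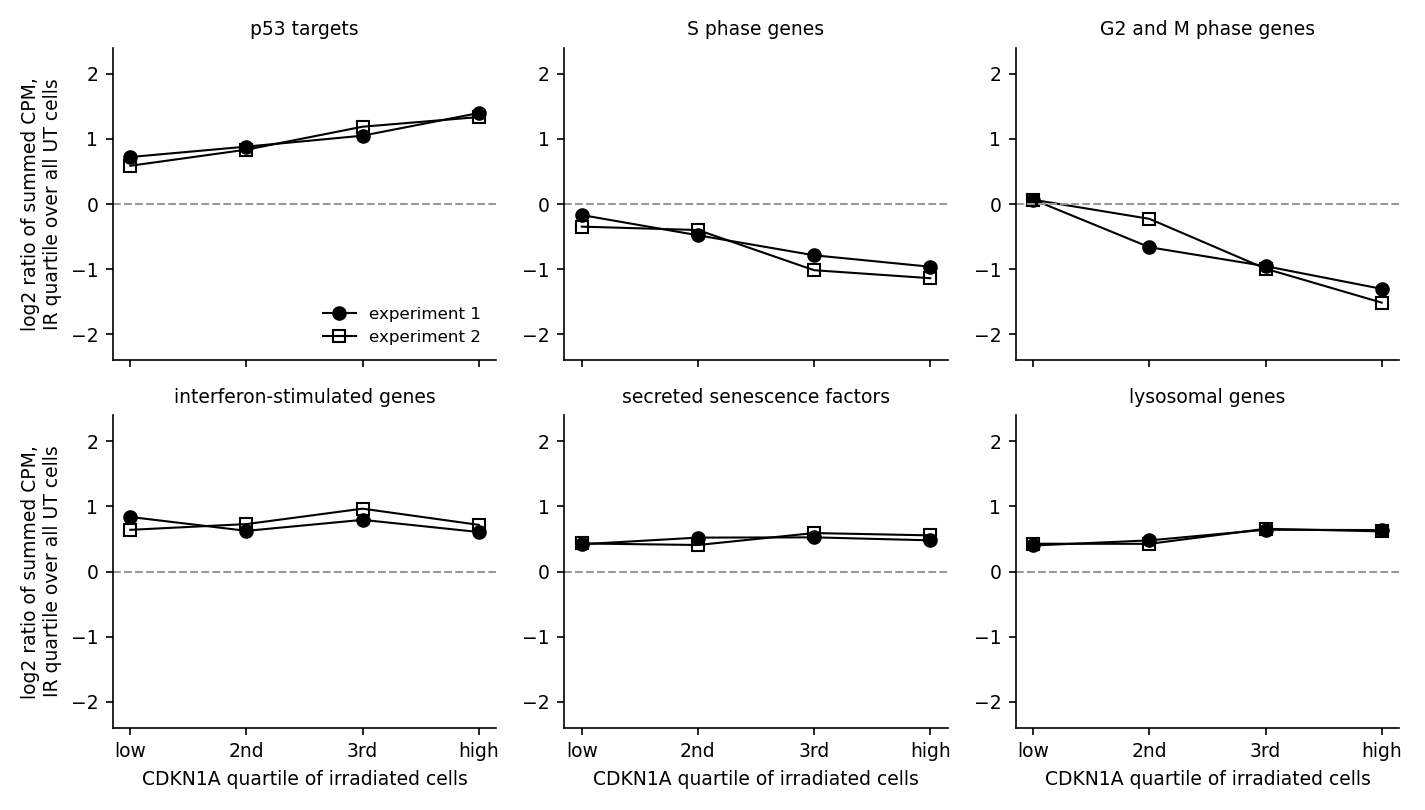
Log2 ratio of the summed CPM of a gene list in each CDKN1A quartile of IR cells to that in the UT library of the same experiment, for 6 lists, with quartiles from low to high on the x axis, filled circles for experiment 1, open squares for experiment 2 and a dashed line where IR equals UT. As linear ratios, G2/M genes reach 1.05 and 1.05 in the lowest and 0.405 and 0.350 in the highest quartile, p53 targets 1.65 and 1.5 in the lowest and 2.63 and 2.52 in the highest, and interferon-stimulated genes stay between 1.52 and 1.95.

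Untreated cells also vary in CDKN1A, so the same quartiles were taken in each UT library. In UT, CDKN1A had 10.3 and 11.9 CPM in CDKN1A-low sums, against 929 and 768 CPM in CDKN1A-high sums. In IR it had 295 and 233 CPM in CDKN1A-low sums, against 1829 and 1715 CPM in CDKN1A-high sums. The quartiles of UT and IR were thus not matched in CDKN1A, and its fold between them was wider in UT. Among 12635 genes, 408 (3.23%) were higher and 456 (3.61%) lower in the CDKN1A-low than in the CDKN1A-high UT quartile, 6.84% in all. G2/M genes had 53 of 57 higher with a median of 1.04, and p53 targets 35 of 47 lower with a median of -1.07, but only 6 of 51 S phase genes were higher, with a median of 0.26. The test of the difference itself, the low-to-high effect in IR minus that in UT, called 71 genes higher (0.562%) and 15 lower (0.119%). Without the block it called none (522 at an unadjusted p under 0.05, against 1204 or 9.53% with the block), with DESeq2 15, and without UT experiment 1 or 2 it called 14 and 11. In that test 9 of 51 S phase genes were called higher, with a median of 0.71, 7 of 57 G2/M genes, with a median of 0.61, and 7 of 47 p53 targets, with a median of 0.42, none of them lower.

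FEN1 shows the S phase pattern: in IR 208 and 208 CPM in CDKN1A-low sums against 91.2 and 91.3 CPM in CDKN1A-high sums, and in UT 213 and 217 CPM in CDKN1A-low against 202 and 249 CPM in CDKN1A-high sums. The effects differed by 1.25 on the log2 scale (edgeR adjusted p = 3.98e-06). MCM2 (1.17), CLSPN (1.39) and RRM2 (0.91) differed in the same direction, with the low and high UT quartiles close together. In UT the summed S phase genes ran through the quartiles, from low to high CDKN1A, as 6026.5, 6874, 6558.9 and 4927.7 CPM in experiment 1. In experiment 2 they ran as 6039.9, 6925.7, 7022.7 and 5699.5 CPM, so the middle quartiles were highest in each. For the p53 targets called here a positive difference meant a narrower span in IR cells, whose quartiles also spanned a narrower fold of CDKN1A itself. BTG2 had 6.65 and 12.5 CPM in the CDKN1A-low UT quartile, against 59.1 and 71.7 CPM in the CDKN1A-high one, a wider fold than in IR (difference 1.25). GADD45A likewise had 47.3 and 46.8 CPM in CDKN1A-low, against 132 and 141 CPM in CDKN1A-high sums, in UT (difference 0.93).

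Because CDKN1A-low cells held more cycle transcripts, quartiles were taken anew among cells at or below each library's median sum of S phase and G2/M genes. This gave 31 cells per quartile and library. Their CDKN1A ranged over 0 to 7.48 and 0 to 7.73 per 10000 in the low and over 15.56 to 53.96 and 14.87 to 46.18 in the high quartile. Summed cycle genes then had medians of 27.0 and 25.1 per 10000 in CDKN1A-low cells, against 23.9 and 28.0 in CDKN1A-high cells. Depth was unequal in experiment 2, with medians of 16277 gene counts in CDKN1A-low cells, against 21545 in CDKN1A-high cells. A limit on the summed cycle genes marks a range of cells, not a cell type, and cycle lists are not read here since they set it.

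Of 9985 genes tested in these cells 47 (0.471%) were higher and 62 (0.621%) lower in CDKN1A-low cells, 1.09% in all. Of the 47 that were higher 19, and of the 62 that were lower 52, had also been called in that direction over all quartile cells, with which they share cells. Without the library block none was called in either direction (488 at an unadjusted p under 0.05, against 997 or 9.98% with the block), and DESeq2 called 8 and 6. p53 targets again had calls in 1 direction, 11 of 46 lower, with a median of -0.65. GDF15 had 103 and 96.3 CPM in CDKN1A-low sums, against 316 and 415 CPM in CDKN1A-high sums (-1.85, edgeR adjusted p = 1.09e-05). MDM2 (174 and 220 CPM in CDKN1A-low, against 411 and 465 CPM in CDKN1A-high sums, -1.15), BTG2 (59.6 and 44.7 CPM in CDKN1A-low, against 148 and 151 CPM in CDKN1A-high sums, -1.50), SESN2 (-1.18), PLK2 (-1.11), TIGAR (-0.97), PPM1D (-0.96) and GADD45A (-0.85) were lower too. HMOX1 (32.8 and 22.4 CPM in CDKN1A-low, against 79.5 and 169 CPM in CDKN1A-high sums) and CITED2 (13.4 and 20.6 CPM in CDKN1A-low, against 51.9 and 109 CPM in CDKN1A-high sums) also fell among these cells.

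Genes higher in these CDKN1A-low cells were of other kinds, and those named next were chosen after their values were seen, except IFIH1. FN1, the matrix glycoprotein fibronectin, had 866 and 1316 CPM in CDKN1A-low sums, against 237 and 543 CPM in CDKN1A-high sums (1.53, edgeR adjusted p = 5.11e-11). It was present in 31 and 30 of 31 CDKN1A-low cells and in 26 and 30 CDKN1A-high cells, and no single CDKN1A-low cell held more than 14.3% of its counts. COL6A3, a chain of collagen VI, had 197 and 210 CPM in CDKN1A-low sums, against 86.0 and 76.7 CPM in CDKN1A-high sums (1.33), and LAMB1, a laminin chain, 140 and 155 CPM in CDKN1A-low, against 81.2 and 62.5 CPM in CDKN1A-high sums (1.05). Over all quartile cells none of these 3 genes was called, with differences of 0.41 for FN1 (edgeR adjusted p = 0.38), 0.26 for COL6A3 (adjusted p = 0.48) and -0.14 for LAMB1 (adjusted p = 0.69). Of 29 matrix genes and YAP targets 4 were higher and none lower among these cells, with a median of 0.15. HAS2, a hyaluronan synthase, was higher by 3.10, but 1 cell held 42.1% and 73.9% of its CDKN1A-low counts. Of the 34 tested interferon-stimulated genes 5 were higher and none lower, with a median of 0.59, and 1 cell held a large share of the counts of the 3 described here. RSAD2, which encodes viperin, had 64.1 and 98.1 CPM in CDKN1A-low sums, against 0 and 15.6 CPM in CDKN1A-high sums, from 2 and 4 of 31 CDKN1A-low cells, 1 of which held 93.1% of the counts in experiment 1. OASL was present in 11 and 13 CDKN1A-low cells, with 41.8% and 57.5% of counts in 1 cell, and in 9 and 10 CDKN1A-high cells. IFIH1 came from 6 and 6 CDKN1A-low cells, with 73.9% and 53.3% in 1 cell.

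**Figure D5:**
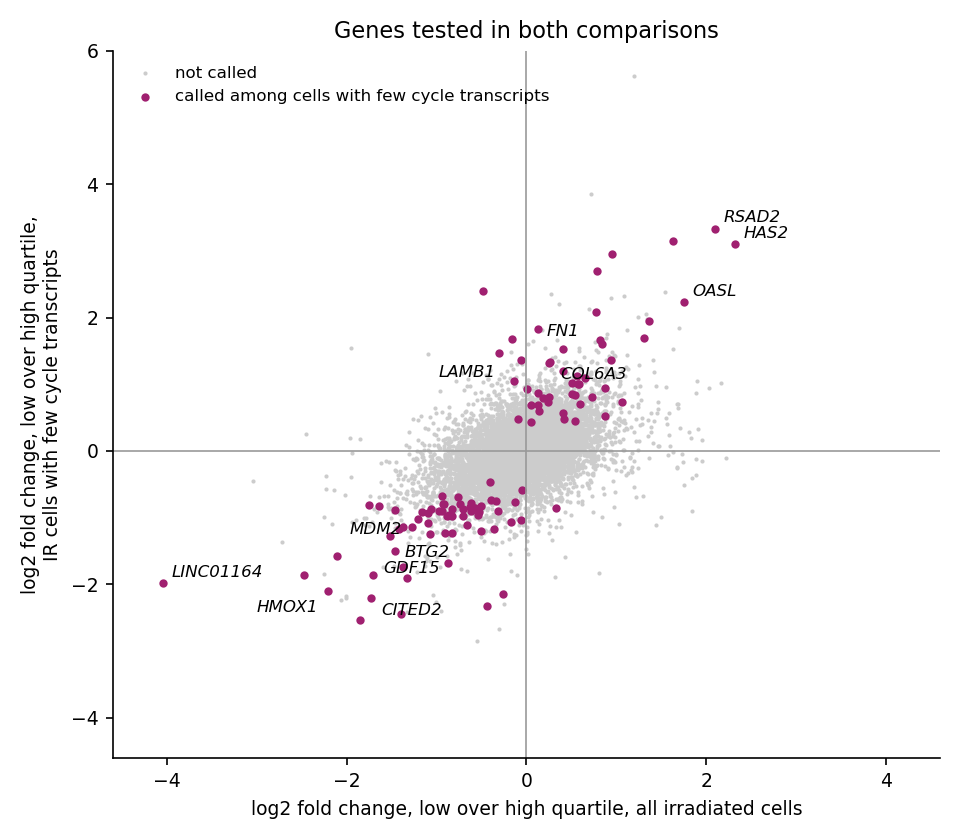
Each point is 1 of the genes tested both ways, with its log2 fold change of CDKN1A-low over CDKN1A-high sums over all irradiated cells on the x axis and among cells with few cycle transcripts on the y axis, and the 109 genes called on the y axis in purple. On the y axis GDF15, BTG2 and MDM2 lie at -1.85, -1.50 and -1.15, and FN1 and COL6A3 at 1.53 and 1.33. The axes share cells and are shown as a description.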

How the data were processed

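Single U-2 OS cells were sorted into wells and processed by SORT-seq, which tags the 3′ end of RNA with a cell barcode and a 6-base UMI, and amplified by CEL-Seq2. The authors mapped reads to GRCh38 with STARsolo, leaving out intronic and multi-gene reads and setting no UMI minimum, and Seurat 5 is named in the submitters' notes. The deposited values are expected counts, that is UMI counts corrected for collisions among 4096 UMIs. The design had assumed whole counts. Strand handling, UMI merging and the barcode filter were not given in the sources used here, and no value exceeded 138. All 1220 barcodes and 36601 genes were used, no doublet caller was run, 92 ERCC spike-ins were left out, and 0 per-sample columns stayed unused.

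Expected counts were summed per library and CDKN1A quartile and rounded. IR totals were 5736339 and 6186428 gene counts. Tests used the quasi-likelihood F test of edgeR 4.0.16 under R 4.3.3, with TMM scaling, filterByExpr and robust fitting, and quartile and library as terms. Two-sided p-values were adjusted over all genes tested by Benjamini and Hochberg's method, and genes with an adjusted p under 0.05 were called. The study describes 2 independent sets of samples, and the p-values rest on these libraries alone. For low against high, with the library as a block, the residual spread is how far quartile effects differed between the 2 IR libraries. Residual degrees of freedom were 3 for low against high, 2 against UT and 6 for the difference between IR and UT. Low and high sums of 1 library are paired by that library, and UT and IR libraries by the experiment number in their titles. Deviations from quartile means correlated at 0.429 to 0.479 between quartiles of a library over 12150 genes, and the biological coefficient of variation was 0.0772 with the block and 0.182 without. In simulated sums for low against high in IR (12076 genes run), 84% of 2-fold and 100% of 4-fold changes were recovered and 4 unchanged genes called. The simulated coefficient of variation was set at 0.05, below the 0.0772 of the data. Changed genes were drawn only above a minimum expected count, so these shares describe an easier setting than the data.

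Named genes are MKI67, MDM2, FAS, GADD45A, TP53BP1 and PCNA, the 10 largest called changes in each direction whose mean reached 20 CPM and whose direction was shared by the experiments, and up to 4 members of each of 21 lists by smallest p. Members and lists were chosen with earlier results of these data known. Genes outside this rule are list members or, where said, were chosen after their values were seen. Lists are described by counts and medians, with no set test. Values of some list members are not reported here. Shares of cells have exact Clopper-Pearson intervals. Alternatives were no block, DESeq2 1.42.0, RLE scaling, no filter, each library left out, low and high sums only, other divisions of the cells than quartiles, ranking by CDKN1A count, thinning to 8000 UMIs and quartiles within depth classes. Gene positions are from GENCODE 44.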

Additional observations from a re-analysis of the deposited data

Results flagged for a closer look

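For 15 of the named genes the CDKN1A-low to CDKN1A-high effect in IR differed from that in UT by the test of the difference itself (edgeR, adjusted p under 0.05). Values are the IR effect minus the UT effect on the log2 scale. Genes of replication and related processes were FEN1 at 1.25, CLSPN at 1.39, MCM2 at 1.17, RRM2 at 0.91, PCNA at 0.66, the crosslink repair gene FANCI at 1.03 and the histone gene HIST1H4C at 0.86. CLSPN had 160 and 115 CPM in the CDKN1A-low UT quartile, against 164 and 111 CPM in the CDKN1A-high one, so the UT quartiles did not separate.

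The mitotic genes CDCA8 (1.21) and ANLN (0.97) differed between quartiles in UT as well, by smaller folds. The p53 targets BTG2 (1.25) and GADD45A (0.93) had a wider span in UT, as had IGFBP7 (0.96), with 51.0 and 43.1 CPM in the CDKN1A-low UT quartile against 130 and 153 CPM in the CDKN1A-high one. CDKN1A itself also had the wider fold between UT quartiles, and its part in these differences was not tested.

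ACTA2, a smooth muscle actin, had the largest value among these 15, at 2.56. In IR it stood at 40.5 and 34.7 CPM in CDKN1A-low sums, against 86.5 and 49.4 CPM in CDKN1A-high sums, and in UT at 3.70 and 3.12 CPM in CDKN1A-low, against 40.1 and 33.6 CPM in CDKN1A-high sums. THBS1 (1.46) was higher in CDKN1A-low cells in IR, while in UT it had 130 and 177 CPM in CDKN1A-low, against 184 and 264 CPM in CDKN1A-high sums. LATS2 was the only one of these 15 with a negative value (-0.97), lower in CDKN1A-low cells in IR and near equal in UT, at 56.9 and 60.5 CPM in CDKN1A-low, against 58.4 and 47.4 CPM in CDKN1A-high sums.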

How the results depend on the processing

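With the library or experiment as a replicate block left out, low against high in IR called 114 genes higher and 41 lower, CDKN1A-low IR against UT 19 and 4, CDKN1A-high IR against UT 502 and 460, the difference between IR and UT 0 and 0, and cells with few cycle transcripts 0 and 0. Of the 155 genes called without the block in low against high, 154 were among those called with it. DESeq2 called 247 and 134, 157 and 70, 647 and 623, 15 and 0, and 8 and 6 in the same order. For low against high in IR, the outer 10% in place of quartiles called 394 and 297, ranking by CDKN1A count per cell 386 and 266, and thinning to 8000 UMIs 327 and 213. Without the 155 genes near the count ceiling (a mean of at least 20 per cell, added after seeing the data) 1247 genes were called, 1237 of them also called with those genes kept. Without IR experiment 1 or 2, 462 to 573 genes were higher and 310 to 392 lower. These fits also held the UT quartiles, because the 1 IR library left has no residual spread of its own. The spread was therefore that of the UT libraries. These counts cannot show whether the calls hold in 1 IR library, so only the estimates and their signs are read. Leaving out UT experiment 1 or 2 gave 313 to 352 higher and 202 to 280 lower for CDKN1A-low IR against UT. Leaving out an IR experiment together with the block, added after seeing the data because the blocked fit then had no residual degree of freedom, gave 10 to 26 and 0 to 1 there, and 264 to 313 and 254 to 261 for CDKN1A-high IR against UT. For the difference between IR and UT, leaving out 1 library gave 11 to 57 higher and 0 to 11 lower. Without the filter on low counts 567 genes were lower in CDKN1A-low IR than in UT, and 119 were higher in the difference. The cause of these shifts was not tested. Estimates that changed sign were all uncalled: CXCL8 at -0.053 without IR experiment 2 (2.07 without experiment 1), SOD2 at 0.081 without IR experiment 1 (-0.67 without experiment 2) and at 0.399 when cells were ranked by CDKN1A count, HPRT1 at -0.051 without IR experiment 1 (0.89 without experiment 2) and EPCAM at -0.24 without IR experiment 2 (0.75 without experiment 1). Of 83 named genes that were called, 34 remained called without the block, 59 with DESeq2 and 50 with ranking by count. After thinning 58 remained called, and 71 with quartiles within depth classes. None of the 83 changed sign under any alternative run. Precision is limited by 2 libraries per condition and about 62 cells per quartile. For cells with few cycle transcripts no library was left out.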

Other observations

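The 3 genes given next, chosen after their values were seen, had a low-to-high CDKN1A difference that differed between IR and UT cells. FST, the activin antagonist follistatin, had 90.4 and 46.5 CPM in CDKN1A-low and 52.2 and 63.6 CPM in CDKN1A-high IR sums, and 20 and 21.2 CPM in CDKN1A-low and 94.4 and 81.6 CPM in CDKN1A-high UT sums. The 2 effects differed by 2.27 on the log2 scale (edgeR adjusted p = 6.31e-06). ISG15, the ubiquitin-like interferon-stimulated protein, had 77.1 and 60.7 CPM in CDKN1A-low and 36.6 and 67.6 CPM in CDKN1A-high IR sums, and 6.65 and 5.62 CPM in CDKN1A-low and 31.2 and 13.3 CPM in CDKN1A-high UT sums (difference 2.23, adjusted p = 0.0275). SOX2, a stem cell transcription factor, differed between the IR quartiles, with UT quartiles close together: 15.6 and 30.8 CPM in CDKN1A-low and 2.34 and 6.76 CPM in CDKN1A-high IR sums, and 48.8 and 31.2 CPM in CDKN1A-low and 43.5 and 29.5 CPM in CDKN1A-high UT sums (difference 2.15, adjusted p = 0.0191). The CDKN1A-high IR values of SOX2 rest on few counts, and the number of cells that held it was not counted.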
